A study of Mus musculus with 6 samples.

Results

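The AP-1 and immediate early factors examined here are 10 transcription factor genes, Fos, Fosb, Fosl1, Fosl2, Jun, Junb, Jund, Atf3, Egr1 and Maff, out of 19937 named genes measured on 6 Affymetrix arrays. The members were taken by name, and each was read by the probe set that the platform annotation gives to that gene alone, with the highest mean over the 6 arrays where there were several. Each of the 10 genes had 1 such probe set, so nothing was averaged or discarded. The arrays hold RNA of A316 cells, a mouse primary adenocarcinoma line with a knockout of Cebpa. PTC-209, a compound that the labels call a Bmi inhibitor, had been given in 0.5% DMSO to the cells of 3 arrays, and 0.5% DMSO alone to the cells of the other 3. Every array, treated or not, therefore carries the Cebpa knockout and DMSO, and all come from 1 line. The labels name neither the dose nor the exposure time, and they do not say that the arrays of a group come from separate cultures. The p-values therefore speak of the spread among these 6 arrays, part or all of which may be technical. The comparison asks how these factors differ between cells given PTC-209 and cells given the solvent alone. Whether the compound reduced Bmi1 in these cells was not tested.

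AP-1 is a dimer of basic leucine zipper (bZIP) proteins that binds DNA at short palindromic sites. Jun proteins pair with each other or with Fos proteins, while Fos proteins need a Jun partner to bind. ATF3 joins the same dimers and is a classical stress-induced gene, and MafF is a small Maf protein that lacks a transactivation domain and pairs with factors such as NRF2. Fos and the zinc finger gene Egr1 are immediate early genes, switched on within minutes of a growth signal through serum response factor and its partners, without new protein synthesis. In lung and other epithelial tumours AP-1 acts downstream of RAS and MAP kinase signalling.

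With PTC-209, the levels of 4 of the 10 factors rose (Maff, Atf3, Jun and Fosl1), those of 2 fell (Fos and Egr1), and 4 (Fosb, Fosl2, Junb and Jund) did not pass the test, which was limma with p-values adjusted over all 28192 probe sets and a threshold of 0.05. Over all named genes 12.9% rose and 13.7% fell. The median absolute log2 difference was 0.51 for the 10 factors and 0.17 for all named genes, and the median signed difference was 0.15 for the factors and 0.026 for all named genes. For 7 of the 10 factors every PTC-209 array lay on one side of every DMSO array, as it did for 40.5% of named genes. All 10 factors had means above the median brightness of the probe sets, and these comparisons with all named genes were not matched for brightness. Values below are log2 expression on the RMA scale, where a difference of 1 is a 2-fold change, and a log2 difference is PTC-209 minus DMSO. On bulk arrays, fewer cells of a type and less RNA per cell cannot be told apart, and the array reads mRNA and not the protein or its phosphorylation.

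**Figure D1:**
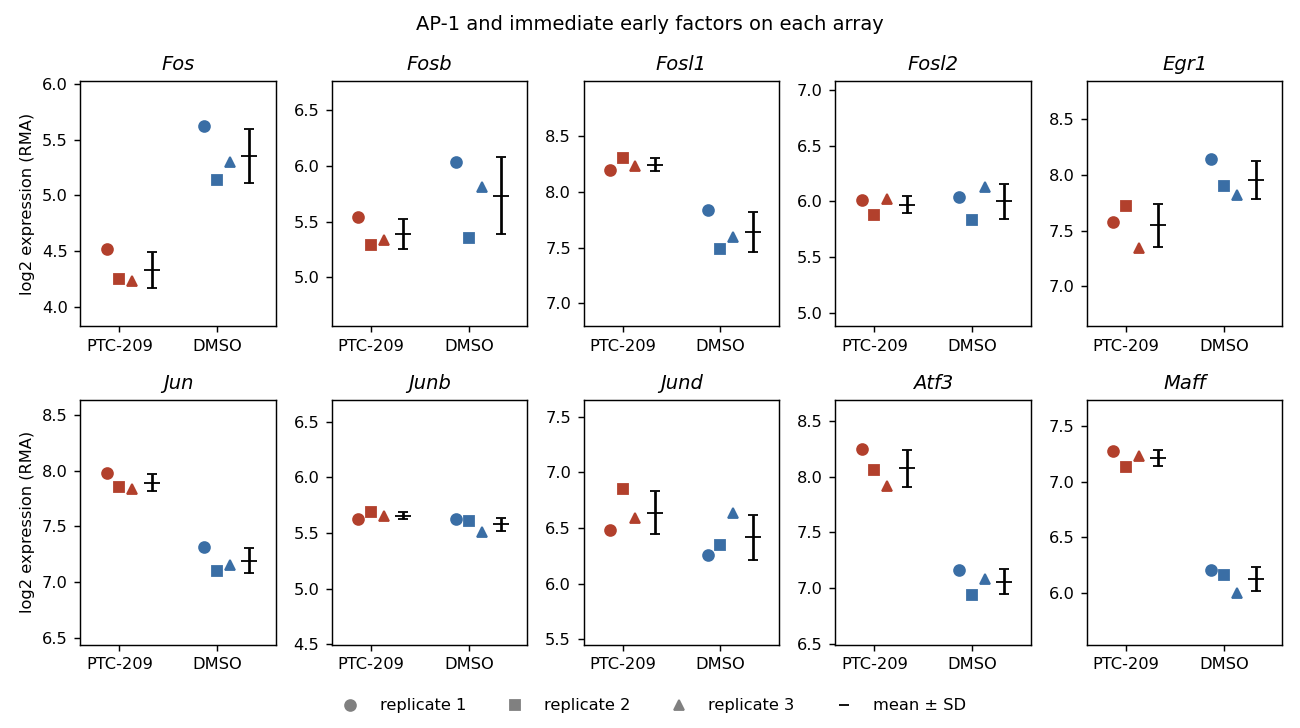
Log2 expression of the 10 factors on each array, with PTC-209 at the left and DMSO at the right of each panel. Symbols mark the replicate number, the bars are the mean ± SD of 3 arrays, and every panel spans the same height, so that the separation of the groups for Fos, Fosl1, Jun, Atf3 and Maff can be set beside the overlap for Fosb, Fosl2 and Jund.

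The cells carried epithelial keratins on all arrays. Of 8 epithelial markers, 4 fell (50%) and 2 rose (25%) with PTC-209, against 13.7% and 12.9% of all named genes. The falls were in the keratins Krt7, Krt8, Krt18 and Krt19, and the rises in Cdh1 (log2 difference 0.35) and Cldn4 (0.66). Krt8 was at 10.58 ± 0.11 with PTC-209 and 11.41 ± 0.11 with DMSO (SD, n = 3 each). Markers of differentiated lung epithelium were dim, 8 of 9 having means below 4.33, the median over probe sets, with and without PTC-209, and 0 of 9 passed the threshold by limma's adjusted p (0 at an unadjusted p under 0.05). The summed log2 level of 6 leukocyte markers was 27.1 to 27.4 with PTC-209 and 24.1 to 24.9 with DMSO, and that of 5 endothelial markers 19.5 to 20.4 with PTC-209 and 20.6 to 21.0 with DMSO. A single gene passed the test in each list, Cd68 of lysosomes and macrophages with a rise (10.03 with PTC-209 and 7.42 with DMSO) and the cadherin Cdh5 with a fall (8.15 with PTC-209 and 9.48 with DMSO). The leukocyte marker Ptprc was at 3.06 with PTC-209 and 3.17 with DMSO, and the endothelial marker Pecam1 at 3.51 with PTC-209 and 3.39 with DMSO, both under the median brightness. Of 8 fibroblast markers 0 passed the threshold by limma's adjusted p (1 at an unadjusted p under 0.05). The part of these shifts in the results on the factors was not tested.

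The promoters of Maff, Atf3, Jun and Fos are shown because the levels of these genes moved most among the 10 and can be read beside the motifs that bZIP, EGR and serum response factors are known to bind. RefSeq's promoter table (GRCm38.p6, 300 bases from 250 before to 50 after each start) held 10 windows for 8 of the 10 genes, 3 of them for Maff, and none was used for Fosl1 and Egr1. The 200 bases before the start are printed 5′ to 3′ on the gene's strand, and capitals mark every match of the motifs searched. The windows lie at chr15:79347320-79347519, plus strand, for Maff, at chr1:191183334-191183533, minus strand, for Atf3, at chr4:95052223-95052422, minus strand, for Jun, and at chr12:85473690-85473889, plus strand, for Fos.
Maff: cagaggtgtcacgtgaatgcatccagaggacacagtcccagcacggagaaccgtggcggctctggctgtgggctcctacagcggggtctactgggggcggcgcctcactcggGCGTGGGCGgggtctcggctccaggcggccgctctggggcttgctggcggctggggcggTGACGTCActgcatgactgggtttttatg
Atf3: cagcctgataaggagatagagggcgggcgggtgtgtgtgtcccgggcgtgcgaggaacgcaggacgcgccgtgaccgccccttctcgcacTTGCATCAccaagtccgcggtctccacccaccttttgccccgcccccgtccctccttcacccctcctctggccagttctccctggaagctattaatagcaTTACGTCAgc
Jun: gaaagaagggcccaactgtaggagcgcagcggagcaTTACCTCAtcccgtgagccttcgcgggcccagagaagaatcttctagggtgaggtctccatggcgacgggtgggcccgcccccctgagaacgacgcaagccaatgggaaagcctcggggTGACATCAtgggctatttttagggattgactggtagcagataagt
Fos: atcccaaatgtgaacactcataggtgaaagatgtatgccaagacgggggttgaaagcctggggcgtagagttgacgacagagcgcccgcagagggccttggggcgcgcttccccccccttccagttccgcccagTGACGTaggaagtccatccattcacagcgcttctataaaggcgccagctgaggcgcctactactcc
Maff has 3 windows, and the window shown was picked because it holds a full cAMP response element, TGACGTCA. Its presence there is therefore no finding, and 1 of the 10 windows held the motif. The first letter lies 29 bases before the start, and 1.79% of all 32851 windows hold that motif on either strand. Farther out the Maff window shown holds an EGR site, GCGNGGGCG, 88 bases before the start. That motif is in 5.55% of all windows and also in those of Fosb and Fosl2. The Atf3 window holds TTACGTCA 10 bases before the start (0.499% of all windows) and, 110 bases before it, the complement of TGATGCAA, the composite letters read by C/EBP and ATF4 dimers (0.895% of all windows). Among the 10 windows, TGATGCAA was found at Atf3 alone. In the Jun window stand 2 sites close to the AP-1 motif, TGACATCA 45 bases before the start (3.62% of all windows, also in another Maff window) and TTACCTCA 164 bases before it (0.889%). The Fos window holds the core of the cAMP response element, TGACGT, 66 bases before the start (7.51% of all windows), a core that is also part of the Maff and Atf3 sites. The AP-1 motif TGANTCA, in 7.81% of all windows, and the CArG box of serum response factor, in 1.63%, were in 0 of the 10 windows. The windows reach 250 bases before a start, and none was used for Egr1. This search therefore cannot show sites farther out, at Fos or elsewhere, or any site at Egr1. A match or its absence describes the letters in these windows and not the binding of a factor.

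Among the Fos family genes, Fos itself fell and Fosl1 rose. Fos, the c-Fos gene, had log2 values of 4.52, 4.25 and 4.23 with PTC-209, against 5.62, 5.14 and 5.30 with DMSO. All 3 treated arrays lay below every DMSO array, and replicate 1 was the highest array of each group. The log2 difference was -1.02 (SE 0.141, limma adjusted p = 0.000552), a 2.03-fold lower level with a 95% confidence interval of 1.63 to 2.53. The treated mean, 4.33 ± 0.16, stood at the median brightness of all probe sets, where a fold is less certain. Leaving out any 1 array gave differences between -1.13 and -0.89, with adjusted p-values of 0.000828 to 0.00389.

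Fosl1 encodes FRA-1, a Fos protein without the strong activation domain of c-Fos that is often abundant in RAS-driven carcinoma cells. Its values were 8.20, 8.31 and 8.23 with PTC-209, against 7.84, 7.49 and 7.60 with DMSO. The groups did not overlap, and the DMSO arrays spread more (range 0.35) than the treated arrays (range 0.11). The log2 difference was 0.60 (SE 0.112, limma adjusted p = 0.00329), a 1.52-fold higher level (1.28 to 1.81). When a fold change above 1.2 was required, Fosl1 did not pass (adjusted p = 0.0545).

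Fosb, the closest paralogue of c-Fos, and Fosl2, which encodes FRA-2, did not pass the test. Fosb was at 5.54, 5.29 and 5.34 with PTC-209, against 6.03, 5.35 and 5.81 with DMSO. DMSO replicate 2 lay within the treated range, and the other DMSO arrays lay above it. The log2 difference of Fosb was -0.34 (95% confidence interval -0.72 to 0.029, limma adjusted p = 0.188), and without DMSO replicate 2 it was -0.53 and passed (adjusted p = 0.0202). Fosl2 was at 6.02, 5.88 and 6.02 with PTC-209, against 6.04, 5.83 and 6.13 with DMSO. The groups overlapped throughout, with a log2 difference of -0.031 (-0.27 to 0.21, adjusted p = 0.895), whose sign was positive in 3 of the 15 alternatives described in the closing section.

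Of the 3 Jun genes, Jun alone passed. Jun, the c-Jun gene, whose protein is a strong activator within AP-1 and is phosphorylated by the JNK kinases, was at 7.98, 7.86 and 7.84 with PTC-209, against 7.31, 7.10 and 7.15 with DMSO. The groups were separated by more than the range within either of them. The log2 difference was 0.70 (SE 0.1, limma adjusted p = 0.000663), a 1.63-fold higher level (1.39 to 1.90). The adjusted p lay between 0.000828 and 0.00409 when any 1 array was left out.

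Junb, a Jun protein that can restrain c-Jun, was at 5.63, 5.69 and 5.66 with PTC-209, against 5.62, 5.61 and 5.51 with DMSO. The treated arrays lay above the DMSO arrays by a narrow margin, and the log2 difference of 0.077 (95% confidence interval -0.12 to 0.28) did not pass (adjusted p = 0.635). Jund, the Jun gene that is expressed most constantly in resting cells, was at 6.48, 6.85 and 6.58 with PTC-209, against 6.25, 6.35 and 6.64 with DMSO. DMSO replicate 3 lay above 2 of the treated arrays, and the log2 difference was 0.22 (-0.082 to 0.53, adjusted p = 0.308).

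Atf3 and Maff rose the most of the 10. Atf3, a bZIP repressor and stress gene, was at 8.25, 8.06 and 7.92 with PTC-209, against 7.16, 6.93 and 7.08 with DMSO. No treated array came within 0.7 of a DMSO array. The log2 difference was 1.02 (SE 0.115, limma adjusted p = 0.000158), a 2.02-fold higher level (1.69 to 2.42). Atf4 and Ddit3 (CHOP), bZIP factors of the integrated stress response, rose as well, Atf4 at 9.72 ± 0.079 with PTC-209 and 8.52 ± 0.067 with DMSO, and Ddit3 at 7.89 ± 0.013 with PTC-209 and 5.64 ± 0.13 with DMSO (SD, n = 3 each). All 12 genes of a list of that pathway's core, to which both belong, rose, against 12.9% of all named genes. Their median log2 difference was 1.42. The list was chosen with earlier results of these data known, and a link between it and the rise of Atf3 was not tested.

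Maff was at 7.27, 7.13 and 7.23 with PTC-209, against 6.21, 6.17 and 6.0 with DMSO. The gap between the groups, over 0.9, was several times the range within either group. The log2 difference was 1.09 (SE 0.0989, limma adjusted p = 4.09e-05), a 2.12-fold higher level (1.82 to 2.48). Among the 10 factors it had the smallest adjusted p, and the call held whichever array was left out (adjusted p = 0.000152 to 0.000382).

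Egr1, a zinc finger factor that is no AP-1 subunit but shares its immediate early induction, was at 7.57, 7.72 and 7.34 with PTC-209, against 8.14, 7.90 and 7.82 with DMSO. The highest treated array lay just under the lowest DMSO array. The log2 difference of -0.41 (SE 0.13, a 1.33-fold lower level, 1.08 to 1.62) passed at the edge of the threshold (limma adjusted p = 0.049). The call was lost without PTC-209 replicate 1 (adjusted p = 0.0983), PTC-209 replicate 3 (0.164), DMSO replicate 1 (0.132), DMSO replicate 2 (0.0858) or DMSO replicate 3 (0.0531), and kept without PTC-209 replicate 2 (0.0407). Without DMSO replicate 2 the falls among the 10 factors were those of Fos and Fosb, and without any of the other 4 arrays whose omission lost Egr1 they numbered 1, that of Fos.

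**Figure D2:**
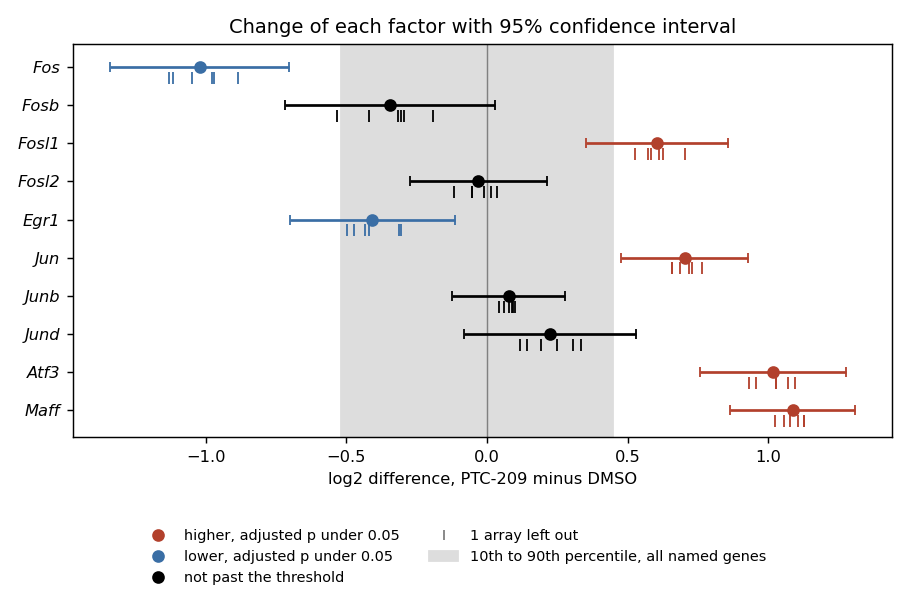
Log2 difference (PTC-209 minus DMSO) of each factor with its 95% confidence interval from limma, and, as ticks under each point, the difference when 1 array is left out. Maff, Atf3, Jun and Fosl1 lie to the right of 0 and Fos and Egr1 to the left, and the grey band spans the 10th to the 90th percentile of all named genes, -0.52 to 0.45.

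Within the DMSO group, replicate 1 was the highest array for 8 of the 10 factors, all but Fosl2 and Jund, and within the PTC-209 group replicate 1 was the highest for 5. This was not counted over all named genes, so whether it is particular to these factors was not tested. The range over the 3 DMSO arrays was 0.68 for Fosb, 0.48 for Fos and 0.32 for Egr1, and it was 0.11 for Junb. Fosb, whose DMSO arrays spread the most, had an SE of 0.166 against 0.0895 for Junb.

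Because the dimer that forms depends on which partners are present, the factors were also set against each other within each array. The value of Jun minus that of Fos was 3.46, 3.61 and 3.61 with PTC-209, against 1.69, 1.96 and 1.85 with DMSO, a change of 1.72 in the log2 ratio. These are differences between probe sets and show how the balance shifted between groups, not which mRNA was more abundant. Fosl1 minus Fos changed by 1.62, Fosl1 minus Fosl2 by 0.63 and Jun minus Junb by 0.63, all higher on every treated array than on any DMSO array. Jun and Fosl1 rose and Fos fell, each without overlap of the groups. The separation of Jun minus Fos and of Fosl1 minus Fos therefore follows from those results and adds no evidence. Fos minus Fosb was lower on every treated array and changed by -0.68. The treated level of Fos was at the median brightness, so the sizes of the changes that include Fos are less certain. Jun minus Jund changed by 0.48, with overlapping groups (1.5, 1.0 and 1.25 with PTC-209, against 1.06, 0.75 and 0.51 with DMSO). In the exact two-sided permutation test over arrays the p was 0.1 for 5 of the 6 pairs and 0.2 for Jun minus Jund (0.12 and 0.2 adjusted over the 6 pairs). With 3 arrays against 3, 0.1 is the smallest p the test can give, so none could pass.

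**Figure D3:**
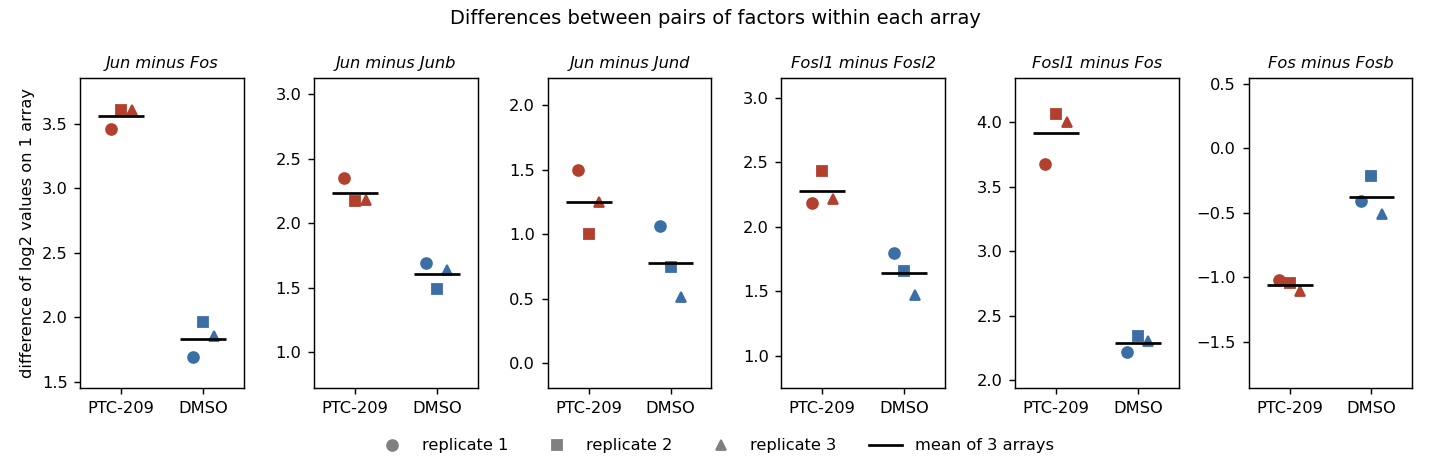
Difference of the log2 values of a pair of factors on the same array, PTC-209 at the left and DMSO at the right of each panel, with the mean of 3 arrays as a line. Jun minus Fos lay at 3.46 to 3.61 on the treated arrays and 1.69 to 1.96 on the DMSO arrays, and the groups overlap for Jun minus Jund.

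The other bZIP factors, with which these proteins dimerise or compete, rose more often than they fell. Of 27 measured genes of that list 15 rose (55.6%) and 2 fell (7.41%), with a median log2 difference of 0.46. Of all named genes 12.9% rose and 13.7% fell. Some of the rises, those of Ddit3, Atf4 and Atf5 among them, are also counted in the list of the integrated stress response core above, so the counts overlap. After Ddit3, the largest rise was in Mafk (log2 difference 1.30), then Atf4 (1.21), Mafg (1.16) and Atf5 (1.16). Mafk and Mafg are the other small Maf genes, so all 3 small Mafs, Maff included, rose by 1.09 to 1.30. Mafk was at 7.09 ± 0.11 with PTC-209 and 5.78 ± 0.13 with DMSO, and Mafg at 7.75 ± 0.035 with PTC-209 and 6.59 ± 0.12 with DMSO (SD, n = 3 each; limma adjusted p = 2.42e-05 and 2.45e-05). Of the 6 genes of the CNC and BACH family, the partners of small Mafs, which were named after their values were seen, 3 rose and 3 did not pass. Nfe2l1 rose by 1.1, Bach1, a repressor at the same sites, by 0.73, and Nfe2l2, the NRF2 gene, by 0.42. Nfe2l3 had a difference of -0.14 (limma adjusted p = 0.431), Nfe2 of 0.048 (0.835) and Bach2 of 0.044 (0.808), and Nfe2 and Bach2 were under the median brightness in both groups. Jdp2, a repressor that dimerises with c-Jun, likewise chosen, rose by 0.98. Batf, another AP-1 partner, had a difference of 0.06 (limma adjusted p = 0.748), Batf2 of -0.27 (0.133) and Batf3 of -0.28 (0.0896), so none of them passed. Batf was under the median brightness in both groups, and Batf2 and Batf3 were under it with PTC-209. The falls were Cebpd (-0.81) and Creb1 (-0.44), whose protein binds the cAMP response element. Cebpd averaged 3.97 with PTC-209 and 4.78 with DMSO, so that its treated level lay under the median brightness and the size of its fall is uncertain. The Creb1 call was lost without PTC-209 replicate 2 (adjusted p = 0.0727), which left 1 fall in the list.

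Other immediate early genes did not move together. Of 38 measured, 10 rose (26.3%) and 8 fell (21.1%), against 12.9% and 13.7% of all named genes. The median log2 difference was -0.0046. Ccn2, a matricellular growth factor, was 8.46-fold lower (6.08 ± 0.21 with PTC-209 and 9.16 ± 0.32 with DMSO, SD, n = 3 each, limma adjusted p = 1.74e-06). Its relative Ccn1 fell by 0.92 on the log2 scale, the inflammatory regulator Nfkbiz by 1.25, the pseudokinase Trib1 by 0.79 and the EGFR inhibitor Errfi1 by 0.63. The rises were led by Gadd45b, a stress gene (1.67), the kinase Plk3 (1.13), the zinc finger factor Klf6 (0.88), Myc (0.70) and Ptgs2, cyclooxygenase 2 (0.49). The 3 paralogues of Egr1, named as such after their values were seen, did not pass, with log2 differences of -0.41 for Egr2 (limma adjusted p = 0.0579), 0.08 for Egr3 (0.699) and 0.18 for Egr4 (0.361).

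**Figure D4:**
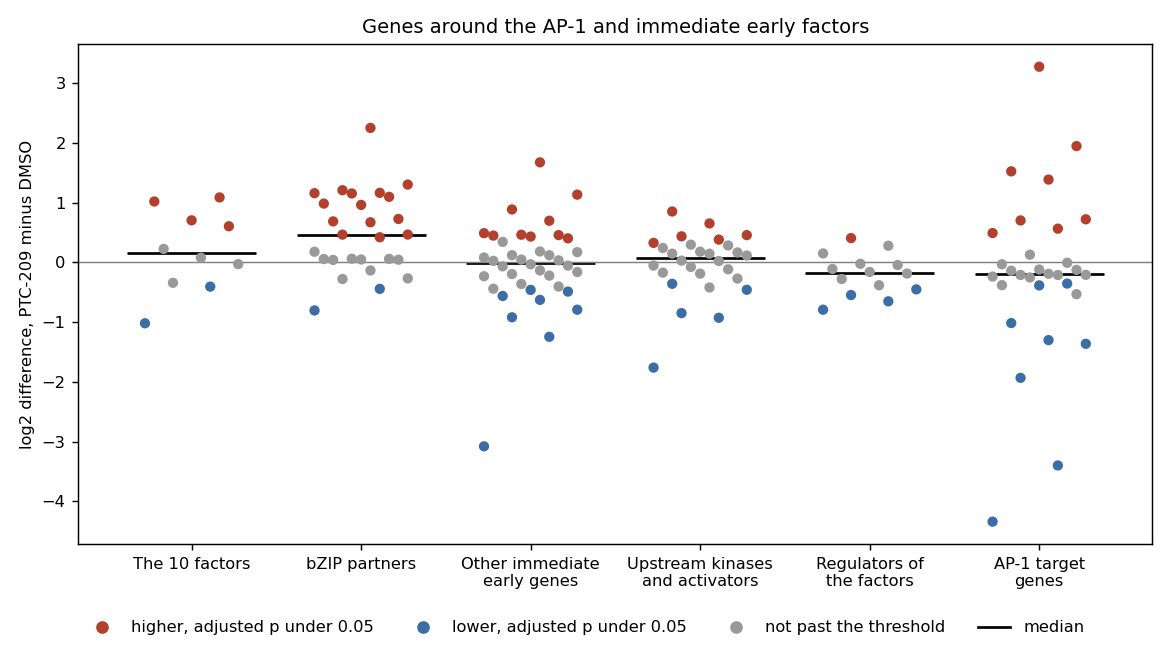
Log2 difference (PTC-209 minus DMSO) of every measured gene of the 10 factors and of 5 lists around them. Each point is a gene, coloured by its limma call, and the line is the list's median, which was 0.46 for the bZIP partners and -0.20 for AP-1 target genes.

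Of 28 measured kinases and activators upstream of AP-1 and Egr1, 6 rose (21.4%) and 5 fell (17.9%), with a median log2 difference of 0.071. Among all named genes 12.9% rose and 13.7% fell. A further 8 genes of that list were not analysed here. Mapk8, the gene of JNK1, a kinase of c-Jun, rose by 0.85 (7.88 ± 0.10 with PTC-209 and 7.03 ± 0.063 with DMSO, SD, n = 3 each, limma adjusted p = 0.000172). Elk1, a partner of serum response factor at the Fos and Egr1 promoters, rose by 0.65, the RAF kinase Braf by 0.46, Map2k1, the gene of MEK1, by 0.43 and the coactivator Mrtfb by 0.38. Of the other 2 probe sets of Mrtfb, with differences of 0.46 and 0.47, the first passed (adjusted p = 0.0055) and the second did not (0.104). Map2k6, which activates p38 kinases, fell by 1.76 (4.46 ± 0.17 with PTC-209 and 6.23 ± 0.051 with DMSO, SD, n = 3 each). Rps6ka5, a kinase of chromatin at immediate early genes, fell by 0.93, Elk3 by 0.85, Araf by 0.46 and Mapk13 by 0.36. Rps6ka5 averaged 3.80 with PTC-209 and 4.73 with DMSO, so that the size of its fall is uncertain, and it was not among the probe sets kept when dim ones were left out. Single arrays decided several of these calls. Without PTC-209 replicate 2 the counts were 3 rises and 3 falls, without DMSO replicate 2 there were 3 rises, and without PTC-209 replicate 3 there were 3 falls. Among the genes named, the calls lost were those of Braf (adjusted p = 0.0729) and Mrtfb (0.11), Araf (0.0564) and Mapk13 (0.172) without PTC-209 replicate 2, of Braf (0.0694), Mrtfb (0.103) and Mapk13 (0.104) without DMSO replicate 2, and of Rps6ka5 (0.056) and Mapk13 (0.103) without PTC-209 replicate 3. Braf (0.075) and Mrtfb (0.076) also lost theirs without PTC-209 replicate 1, Braf (0.052) and Mapk13 (0.121) without DMSO replicate 1 and Mrtfb (0.0844) without DMSO replicate 3.

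Among 14 measured regulators of the factors' proteins, 4 fell (28.6%) and 1 rose (7.14%), against 13.7% and 12.9% of all named genes. Their median log2 difference was -0.18. Itch, a ubiquitin ligase of c-Jun and JunB, fell by 0.55, the deacetylase Sirt1 by 0.65, Nab1, a corepressor of EGR1, by 0.45, and Trib1, which stands in 2 lists, by 0.79. The rise was in Ube2d3, a ubiquitin-conjugating enzyme, by 0.41. Its 3 probe sets all rose, by 0.38 to 0.41. The call of the brightest was lost without PTC-209 replicate 1 (adjusted p = 0.0586), 2 (0.0574) or 3 (0.065) or DMSO replicate 3 (0.056). By the brightest probe set of each gene, no other gene of the list rose in its place. Cop1 did not pass by its brightest probe set (log2 difference 0.28, limma adjusted p = 0.0787). Its other probe set did pass, with a rise of 0.46 (0.0104). Nab2, another corepressor of EGR1, had a log2 difference of -0.19 (adjusted p = 0.199).

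Genes that AP-1 is known to regulate went in both directions. Of 30 measured, 8 rose and 8 fell (26.7% each), against 12.9% and 13.7% of all named genes. The median log2 difference was -0.20. The falls were led by the chemokine Ccl2 (-4.34), the cornified envelope gene Sprr1a (-3.40), the protease inhibitor Timp1 (-1.93), the stromelysin Mmp10 (-1.36) and the chemokine Cxcl1 (-1.30). Sprr1a was at 6.79 ± 0.15 with PTC-209 and 10.19 ± 0.029 with DMSO (SD, n = 3 each, limma adjusted p = 1.90e-07). The rises were led by Hmox1, haem oxygenase (3.27), Vegfa (1.94), the metallothioneins Mt1 (1.52) and Mt2 (1.38), and the integrin Itga5 (0.72). Mt1 and Mt2 are neighbouring, closely similar genes, so how much each rose is uncertain. Several of these genes answer to other stress or inflammatory factors as well, and the list does not separate AP-1 from them.

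By root mean square distance between profiles over the 6 arrays, each centred on its own mean, the genes most like Maff and Fos were sought among 10507 named genes outside these lists, with a mean of at least 4.33 in at least 1 group and no provisional gene name. The nearest to Maff were Srfbp1 (distance 0.0287), Ppp1r10 (0.0361) and Lysmd1 (0.0438). The nearest to Fos were Cep152 (0.0491), Itgb6 (0.0566) and Fasn (0.0574). All 6 arrays fall into 2 groups, so the measure mostly reflects the size of the treatment difference, which was 1.09 for Srfbp1 and 1.09 for Maff, and -1.03 for Cep152 and -1.02 for Fos.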

How the data were processed

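A total of 6 arrays of total RNA were analysed, grouped by the treatment and replicate number in their titles. The authors deposited log2 expression values made with RMA, per the submitters' processing notes (version not given in the sources used here), for 34760 probe sets. RMA makes the arrays' distributions nearly equal, with array medians of 4.07 to 4.14, which hides any change common to most genes. A block of 6568 probe sets with consecutive identifiers and no gene, taken to be controls, was left out, leaving 28192, of which 21640 have 1 gene symbol, 1321 several and 5231 none listed. Arrays of a group correlated at 0.992 to 0.996, and arrays of different groups at 0.97 to 0.974.

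Differences were tested with limma 3.58.1 in R 4.3.3 (treatment as the only term, constant prior), with Benjamini-Hochberg adjustment across the 28192 probe sets and a threshold of 0.05. The fit was also run on simulated data to check the code, which is no evidence for the calls reported here. With 3 arrays a group, the number of arrays limits the precision. Probe sets carry no detection call, so the median brightness of 4.33 marks dim ones. Pairs of factors were compared by an exact permutation test in scipy 1.17.1, and figures were drawn with matplotlib 3.10.9. The members and gene lists were chosen with earlier results of these data known. Besides the 10 members, the text names up to 5 genes past the threshold per list and direction, Atf4 and Ddit3, and the 3 genes most like the members with the largest rise and fall. Outside that rule, and after their values were seen, it names the CNC and BACH genes, Jdp2, Batf, Batf2, Batf3, Egr2, Egr3, Egr4, Nab2, Cop1 and the cell type markers given above. Promoter motifs were chosen from textbook knowledge, with results known. The alternatives are given in the closing section. The samples' free-text description, which speaks of embryos and does not match the other labels, was not used.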

Additional observations from a re-analysis of the deposited data

How the results depend on the processing

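The counts of rises and falls among the factors and in the 5 lists around them, the 10 factors and 41 other named genes were recomputed under 15 alternatives: a trended and robust prior, dim probe sets left out, quantile normalization again, a replicate block, median centring, the control block kept, array weights, averaging a gene's probe sets, a minimum fold change of 1.2 and each of the 6 arrays left out. Maff, Atf3, Jun and Fos kept their direction and their side of the threshold under all 15, and Fosl1 lost its call under the minimum fold change (adjusted p = 0.0545). Egr1 lost its call under 9, which besides 5 arrays left out were median centring (0.0611), array weights (0.0818), the control block kept (0.0948) and the minimum fold change (0.664), so that the falls numbered 1 under these 4. Fosl2 was positive after quantile normalization again (0.035), without PTC-209 replicate 2 (0.015) and without DMSO replicate 3 (0.035), and with 1 array left out it ranged between -0.12 and 0.035. With the minimum fold change the counts were 3 rises among the factors, 11 rises and 1 fall among bZIP partners, and 4 rises and 5 falls among other immediate early genes. They were 1 rise and 2 falls among upstream genes, 0 rises and 2 falls among regulators, and 5 rises and 6 falls among AP-1 targets. The falls among AP-1 targets numbered 12 with the trended prior. Smaller shifts of other counts are not all listed. Regulators had 2 rises with the trended prior, with dim probe sets left out, with quantile normalization again and with probe sets averaged. With 1 array left out, the falls among the factors numbered 1 to 2, those of bZIP partners 1 to 2, the rises of upstream genes 3 to 5 and their falls 3 to 6, and the rises of regulators 0 to 1. Same-numbered arrays correlated at 0.231, 0.0703 and 0.0733 in their deviations from the group means, and not every array correlated best with its own number, so the numbers were not taken as pairs. The replicate block kept every call of the factors and of the 41 other named genes with 4 rises and 2 falls among the factors (bZIP partners 15 and 2, other immediate early genes 10 and 10, upstream genes 5 and 6, regulators 1 and 5, targets 8 and 9). Over the 41 genes, 579 of 614 values kept the call, 35 lost it and 0 reversed, and Rps6ka5 had no value with dim probe sets left out. The marker and ATF4 and CHOP counts and the genes named outside the rule were not recomputed. For all of these the cause was not tested, except that a minimum fold change is a stricter test and a left-out array leaves fewer samples. Without detection calls, the level at which a dim value such as that of Fos with PTC-209 becomes background is not known.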
